A study of Rattus norvegicus with 10 samples.

Results

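The effect of sulfur mustard (SM) and MSTF on 9 interferon-stimulated genes was followed in rat liver, array by array. The genes were Isg15, Usp18, Mx1, Mx2, Gbp2, Oas1a, Ifit3, Irf7 and Irf1, and their probes were found through the transcript accession of each array feature. All 9 had at least 1 probe, of 13837 genes that could be named on the array, and all 9 passed the detection filter. Male Sprague Dawley rats were studied in 3 groups on one-colour Agilent Whole Rat Genome arrays, with 1 array per rat. The control group (3 rats) received the solvent, propylene glycol, under the skin. The SM group (4 rats) received SM, an alkylating vesicant, in that solvent at 3.5 mg/kg, equal to 0.7 of the LD50. The SM+MSTF group (3 rats) received the same SM dose and, 1 h later, 120 mg/kg of MSTF by mouth. MSTF combines salvianolic acids of Salvia miltiorrhiza with flavonoids of Anemarrhena asphodeloides. Liver tissue was collected 24 h after the SM injection. The ages of the rats were not given in the sources used here, and rats outside the 3 groups were not analysed here.

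Interferons are secreted proteins that bind receptors on nearly every cell. Type I interferons act through the kinases JAK1 and TYK2 on a transcription factor complex that includes IRF9 and binds the interferon-stimulated response element (ISRE). Interferon gamma leads to binding at a different element, the gamma-activated site (GAS). The products restrict viruses, and in liver they are made by hepatocytes and by resident macrophages and lymphocytes alike.

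The promoters of the members are shown first because the ISRE and GAS are elements that interferon-activated factors bind. Binding to these windows was not measured. The RefSeq promoter table (assembly GRCr8) held 6 of the 9 members, as windows of 250 bases before to 50 bases after the transcript start. It held none for Isg15, Mx2 and Usp18. Each window was searched on both strands for the ISRE core GAAANNGAA and for the GAS letters TTCNNNGAA. In the sequences below, written 5′ to 3′ on the gene's strand, capitals mark the matched bases.
Gbp2: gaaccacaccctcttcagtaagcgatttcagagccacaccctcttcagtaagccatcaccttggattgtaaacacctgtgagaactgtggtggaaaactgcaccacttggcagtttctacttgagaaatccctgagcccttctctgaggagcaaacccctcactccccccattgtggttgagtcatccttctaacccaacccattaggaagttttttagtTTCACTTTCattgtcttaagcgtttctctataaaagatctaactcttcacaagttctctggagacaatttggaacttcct
Oas1a: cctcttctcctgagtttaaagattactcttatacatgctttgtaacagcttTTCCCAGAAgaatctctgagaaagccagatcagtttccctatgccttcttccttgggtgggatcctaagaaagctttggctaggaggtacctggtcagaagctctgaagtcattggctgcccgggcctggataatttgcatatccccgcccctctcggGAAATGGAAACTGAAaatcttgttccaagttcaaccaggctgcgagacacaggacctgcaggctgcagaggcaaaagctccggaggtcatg
Ifit3: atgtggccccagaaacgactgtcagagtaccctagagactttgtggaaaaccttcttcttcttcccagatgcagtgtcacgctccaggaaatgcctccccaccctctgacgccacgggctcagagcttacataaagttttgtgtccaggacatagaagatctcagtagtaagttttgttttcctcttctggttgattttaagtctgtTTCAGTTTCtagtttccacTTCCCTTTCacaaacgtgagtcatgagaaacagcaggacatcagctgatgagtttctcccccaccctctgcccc
Irf7: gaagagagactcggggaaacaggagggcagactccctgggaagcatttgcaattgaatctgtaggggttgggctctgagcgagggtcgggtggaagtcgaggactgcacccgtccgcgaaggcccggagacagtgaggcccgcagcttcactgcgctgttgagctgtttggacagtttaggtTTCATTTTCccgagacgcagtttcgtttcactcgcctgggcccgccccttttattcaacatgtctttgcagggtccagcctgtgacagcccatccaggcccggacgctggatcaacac
Irf1: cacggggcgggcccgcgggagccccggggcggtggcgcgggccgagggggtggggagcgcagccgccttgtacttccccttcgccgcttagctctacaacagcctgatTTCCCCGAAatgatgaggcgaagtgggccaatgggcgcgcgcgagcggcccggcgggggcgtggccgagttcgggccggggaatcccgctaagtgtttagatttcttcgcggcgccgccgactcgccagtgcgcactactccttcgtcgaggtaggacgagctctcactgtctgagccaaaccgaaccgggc
Mx1: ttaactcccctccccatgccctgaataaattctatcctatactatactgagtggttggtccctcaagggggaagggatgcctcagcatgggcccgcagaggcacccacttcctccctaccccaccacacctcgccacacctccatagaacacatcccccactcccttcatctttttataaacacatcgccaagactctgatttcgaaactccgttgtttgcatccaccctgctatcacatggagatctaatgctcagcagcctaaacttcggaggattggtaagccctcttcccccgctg
The windows lie at chr2:234005477-234005776 (Gbp2, plus strand), chr12:41330216-41330515 (Oas1a, plus strand), chr1:241527076-241527375 (Ifit3, plus strand), chr1:205799974-205800273 (Irf7, minus strand), chr10:38417685-38417984 (Irf1, plus strand) and chr11:50294557-50294856 (Mx1, minus strand). The ISRE core was found in 4 of the 6 windows, Gbp2 and Irf7 with 1 match and Oas1a and Ifit3 with 2. The matches of Oas1a overlap each other by 3 bases. Counted from the transcript start, with negative numbers before it, all of these ISRE matches lay between positions -68 and -16. The GAS letters were found in Irf1 at positions -142 to -134 and in Oas1a at positions -199 to -191. The Mx1 window held neither, which says only that these letters are not in this window. Of all 33469 promoter windows of the same length, 9.71% held the ISRE core and 8.87% the GAS letters. A match is a description of the letters and not evidence that a factor binds there.

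The arrays were read before the members were compared. Between 51.9% and 61.4% of probes were well above background on each array, no spot was saturated, and Pearson correlations between arrays across probes were 0.969 to 0.991. The log2 of the summed signal of 8 hepatocyte markers lay between 20.31 and 20.58, and each of the 8 was well above background on all 10 arrays. All 3 control arrays and SM+MSTF replicate 3 were on one slide, all 4 SM arrays on another and SM+MSTF replicates 1 and 2 on the remaining one, so SM and its slide cannot be told apart. RNA came from whole tissue, so fewer cells of a type and less RNA per cell cannot be told apart either. No label states which samples share a culture, litter or day, and the p-values measure the spread between these rats.

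Isg15 encodes a ubiquitin-like protein that is attached to other proteins after interferon exposure. Its log2 normalized signal was 13.99, 15.22 and 15.09 in control replicates 1 to 3, it was 12.15, 10.58, 14.42 and 15.72 in SM replicates 1 to 4, and it was 12.75, 14.29 and 16.92 in SM+MSTF replicates 1 to 3. The SM arrays enclosed all 3 control arrays, with 2 of them below every array of the other groups and 1 above every control array. From the lowest array (SM replicate 2) to the highest (SM+MSTF replicate 3) Isg15 spanned 6.34 on the log2 scale, an 80.7-fold range, and the SM rats alone spanned 35.2-fold. Usp18 encodes the protease that removes ISG15 from its targets and also damps signalling at the type I receptor. Its brighter probe read 10.29, 11.02 and 11.02 in control, 8.97, 7.64, 10.24 and 11.40 in SM and 9.29, 11.11 and 11.97 in SM+MSTF. A second Usp18 probe had the same lowest and highest array and a range of 4.52 against 4.33 on the log2 scale. The modifier and its protease thus stood high and low in the same rats.

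Mx1 and Mx2 encode dynamin-like GTPases that block virus replication, and Gbp2 a guanylate-binding GTPase that attacks intracellular pathogens. Mx1 read 6.39, 7.71 and 7.58 in control, 5.01, 3.67, 6.45 and 8.08 in SM and 6.57, 7.23 and 8.90 in SM+MSTF. The lowest of these, SM replicate 2, was the only array on which Mx1 was not well above background. Mx2 read 9.51, 10.85 and 10.92 in control, 7.78, 6.87, 9.91 and 11.02 in SM and 8.62, 10.19 and 12.26 in SM+MSTF. Gbp2 read 11.27, 11.52 and 11.57 in control, 10.54, 9.76, 11.05 and 11.96 in SM and 11.40, 11.38 and 12.51 in SM+MSTF. In all 3 GTPase genes SM replicates 1 and 2 were the lowest arrays and SM replicate 4 stood above all control arrays. The range over the 10 arrays was 42.0-fold for Mx2 and 6.70-fold for Gbp2, and that of Mx1 over the 9 arrays on which it was well above background was 14.8-fold. Mx1 and Mx2 are close paralogs, and how far each probe also reads the other gene is uncertain.

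Oas1a encodes a 2′-5′-oligoadenylate synthetase, which is activated by double-stranded RNA, and Ifit3 a tetratricopeptide-repeat protein that acts with other IFIT proteins on viral RNA. Oas1a read 13.80, 14.69 and 14.77 in control, 12.99, 11.65, 14.20 and 15.20 in SM and 13.16, 14.44 and 15.80 in SM+MSTF. Ifit3 read 6.79, 8.05 and 7.80 in control, 5.67, 4.45, 7.35 and 8.23 in SM and 6.20, 7.46 and 9.22 in SM+MSTF. Both genes kept the order of arrays seen for Isg15 at both ends. Their ranges were 17.8-fold and 27.4-fold. Oas1a has close relatives in the rat genome, and its probe may read some of them.

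Irf7 and Irf1 encode transcription factors of the interferon system. Irf7 amplifies type I interferon transcription and is itself induced by interferon, whereas Irf1 is induced directly by interferon gamma. Irf7 read 13.17, 14.04 and 13.96 in control, 11.82, 10.63, 13.62 and 14.80 in SM and 12.51, 13.89 and 15.66 in SM+MSTF, a 32.7-fold range. Irf1 read 7.40, 7.61 and 7.55 in control, 7.03, 7.22, 6.9997 and 7.39 in SM and 7.46, 7.19 and 7.75 in SM+MSTF, a range of 1.68-fold. Irf1 differed from the other members in its order of arrays. Its lowest array was SM replicate 3, its SM arrays were narrow, and all 4 of them lay below all 3 control arrays.

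**Figure D1:**
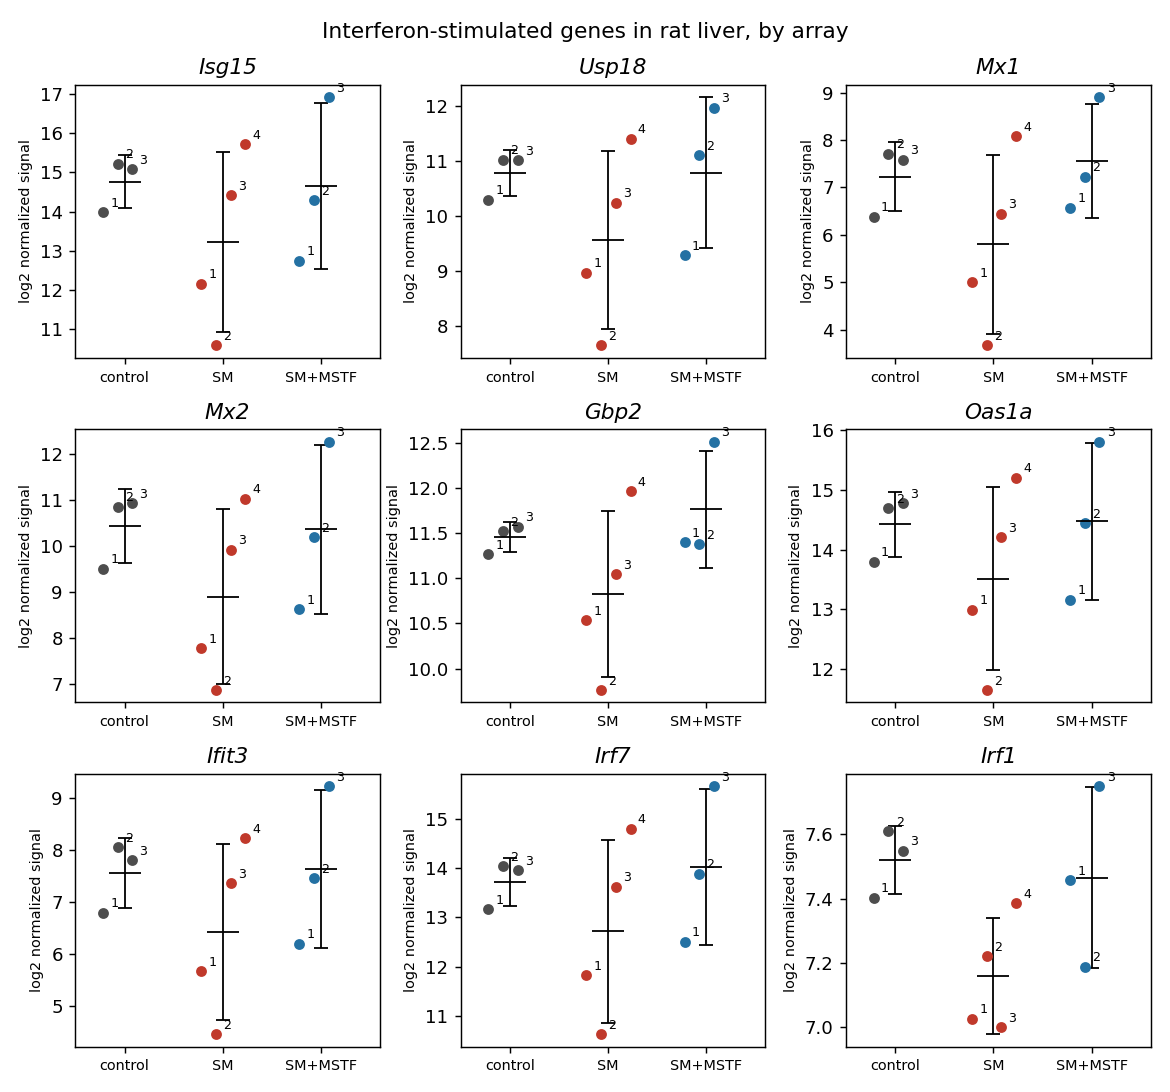
Log2 normalized signal (y axis, scale differs between panels) of the 9 interferon-stimulated genes in control (3 rats), SM (4 rats) and SM+MSTF (3 rats). Points are single arrays with their replicate number, and bars give the mean and SD. In 8 genes the SM points run from below every array of the other groups to above every control array, and in Irf1 they lie below all control points.

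SM replicate 2 was the lowest of the 10 arrays in 8 of 9 members and SM replicate 3 in the other, Irf1. SM replicate 1 was second lowest in all 9. SM replicate 4 was second highest in 8, and SM+MSTF replicate 3 was highest in all 9. The SM rats therefore held both the lowest livers for these genes and one of the highest. The mean of the 9 members, each centred on its own mean, was -1.36, -2.42, 0.00 and 1.06 on the log2 scale in SM replicates 1 to 4, against -0.18, 0.72 and 0.67 in control and -0.70, 0.33 and 1.86 in SM+MSTF.

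In SM versus control, all 9 members had a lower mean in SM, with a median log2 difference of -1.13 beside 0.03 over all 22991 tested probes. None was called at a Benjamini-Hochberg adjusted p under 0.05 in limma and a fold minimum of 1.5, while 2.41% of tested probes were called. The t-test of the methods with the same fold minimum called 0 members as well, before or after adjustment. Irf1 could not be called by either test whatever its p, because its difference was smaller than the fold minimum. The differences were -1.55 (SE 1.25) for Isg15, -1.21 (SE 0.86) for Usp18, -1.43 (SE 0.95) for Mx1, -1.53 (SE 1.07) for Mx2 and -0.63 (SE 0.46) for Gbp2. They were -0.91 (SE 0.83) for Oas1a, -1.13 (SE 0.93) for Ifit3, -1.003 (SE 0.98) for Irf7 and -0.36 (SE 0.15) for Irf1. The 95% interval for Isg15 ran from -4.35 to 1.25, so neither a large fall nor a moderate rise could be told from no difference. Irf1 was the 1 member with an unadjusted p under 0.05 in limma, which 16.4% of all tested probes had. Its interval ran from -0.69 to -0.03, its limma adjusted p was 0.262, and it was also the 1 member in which no SM array reached the control arrays. Of all tested probes, 7.96% lay lower in every SM array than in every control array. The median of the members was -0.47 without SM replicate 2 and -1.73 without SM replicate 4, in place of -1.13. With normexp background correction the difference was -0.58 for Mx1, -0.61 for Ifit3 and -0.23 for Irf1.

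In SM+MSTF versus SM, all 9 members had a higher mean in SM+MSTF, with a median of 1.23 beside -0.02 over all tested probes. Again 0 of 9 were called by limma, where 1.26% of tested probes were, and 0 had an unadjusted p under 0.05, where 15.9% of tested probes had. The t-test of the methods called 0 before or after adjustment. Irf1 again differed by less than the fold minimum and could not be called. Mx1 differed by 1.77 (SE 0.95, interval -0.36 to 3.89, limma adjusted p = 0.381), a value that includes SM replicate 2, where Mx1 was not well above background. Irf1 differed by 0.31 (SE 0.15, interval -0.03 to 0.64, limma adjusted p = 0.341). For Isg15 the difference was 1.43 (SE 1.25, interval -1.37 to 4.23). Both comparisons share the 4 SM arrays, so a low SM mean gives them opposite signs. The median was 0.48 without SM+MSTF replicate 3 and 0.58 without SM replicate 2, whereas it was 1.84 without SM replicate 4 and 1.97 without SM+MSTF replicate 1. With normexp background correction Mx1 gave 0.78, Ifit3 0.78 and Irf1 0.18, and Isg15 (1.39) then had the largest difference of the members.

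In SM+MSTF versus control, 6 members had a higher and 3 a lower mean, with a median difference of 0.05 beside 0.00 over all tested probes. Here 0 of 9 members were called by limma, 0 had an unadjusted p under 0.05, and 0% of tested probes were called. Every member differed by less than the fold minimum, so none could be called. Over all probes 2193 (9.54%) had an unadjusted limma p under 0.05, and the t-test of the methods called 285 unadjusted and 0 after adjustment. Isg15 differed by -0.11 (SE 1.34, interval -3.11 to 2.88) and Irf7 by 0.30 (SE 1.05, interval -2.06 to 2.65). The intervals of these genes are wide enough to hold several-fold changes either way. Without SM+MSTF replicate 3 all 9 members lay below control, with a median of -0.58, and without SM+MSTF replicate 1 8 of 9 lay above it, with a median of 0.79. Without control replicate 1 the median was -0.23. On the slide that held the control arrays, SM+MSTF replicate 3 lay above the control mean in all 9 members, by 2.15 on the log2 scale for Isg15 and 0.23 for Irf1. The mean of the other SM+MSTF arrays, on their own slide, lay below the control mean in all 9, by -1.25 for Isg15 and -0.20 for Irf1.

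**Figure D2:**
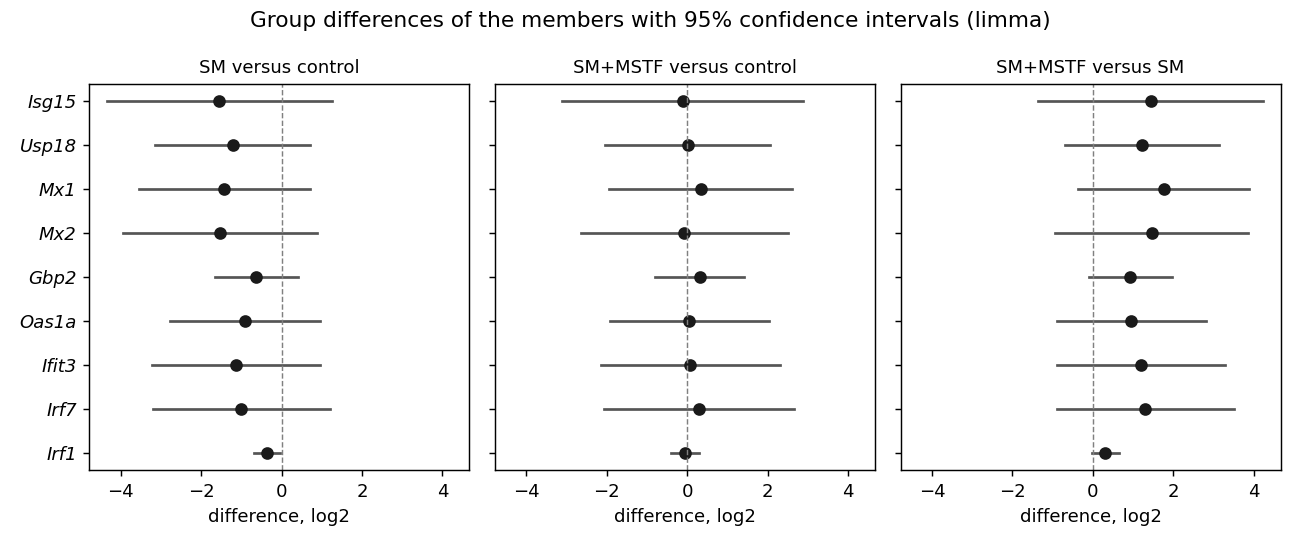
Difference of group means on the log2 scale (x axis) for each member in the 3 comparisons, with 95% confidence intervals from limma over 10 arrays. The dashed line marks no difference. Only the interval of Irf1 in SM versus control, -0.69 to -0.03, leaves it out, before adjustment for the number of probes tested.

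A single test over the 3 groups gave the same picture. By the moderated F-test 0 of 9 members were called, with limma adjusted p-values of 0.331 to 0.671, while 2.07% of tested probes were. The share of a gene's variance that lay between the groups was 15.8% to 31.8% in the 8 members without Irf1 and 49.5% in Irf1, against a median of 30.1% over all tested probes. It was 29.9% for Mx1 and 31.8% for Gbp2, close to that median, and lower for the other 6 of the 8, down to 15.8% for Oas1a.

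The pooled within-group SD of Isg15 was 1.91 on the log2 scale, the 19th highest of 22991 tested probes, where the median probe had 0.20. It was 1.64 for Mx2, 1.501 for Irf7, 1.45 for Mx1, 1.42 for Ifit3, 1.31 for Usp18 and 1.26 for Oas1a. These 7 genes lay in the top 1% of tested probes, above an SD of 1.06. This share was chosen after the values were seen, and when all probes were ranked without the detection filter 2 members lay in the top 1%. Gbp2 (SD 0.70) was at the 96.6th percentile, and Irf1 (SD 0.20) at the 49.4th. The spread was not equal in the groups. For Isg15 the SD was 0.68 in control, 2.29 in SM and 2.11 in SM+MSTF, and for Irf7 it was 0.48, 1.85 and 1.58. The control group had the smallest SD of the 3 in all 9 members, a description given without a test. The share of all tested probes with this order was not computed, and the members other than Irf1 move together. The control arrays also share a slide, whereas the SM+MSTF arrays do not.

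**Figure D3:**
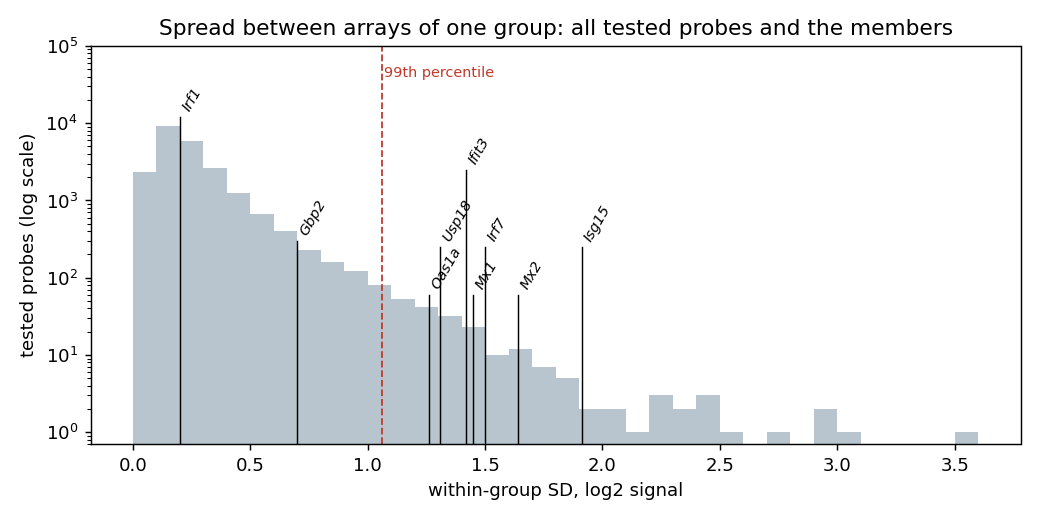
Number of tested probes (y axis, log scale) by the pooled SD of log2 signal between arrays of the same group (x axis), with the 9 members marked. The dashed line is the 99th percentile, at 1.06. Isg15 lies at 1.91, 7 members lie beyond the line, and Irf1 lies at 0.20 among the bulk of probes.

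The 8 members without Irf1 moved together from rat to rat. Over their 28 pairs Pearson's r across the 10 arrays was 0.923 to 0.996, and after centring within groups it was 0.917 to 0.998. Each of the 8 followed the mean of the other members with r of 0.951 to 0.995 and Spearman's rho of 0.903 to 1. Without the 2 arrays farthest from the median, r was still 0.847 to 0.988. Irf1 was less alike, with r = 0.607, rho = 0.564 and, without the 2 farthest arrays, r = 0.494. These values describe 10 arrays that share RNA, labelling and slide between genes, so no p is given. Of all tested probes without a missing value, 1.18% reached r of 0.9 with the mean of the members. Measured against the mean of the other members, 8 of 9 members did.

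The 10 other named genes most like the members over the 10 arrays were Oas1i, Ly6c, Oasl2, Oasl, Ly6cl1, Klrk1, Lgals3bp, Ly6al, Ifi44 and Slfn4, with r from 0.982 to 0.992. After centring within groups their r was 0.981 to 0.996. Oas1i, Oasl2 and Oasl belong to the oligoadenylate synthetase family and Ifi44 is a further interferon-induced gene. Lgals3bp encodes a secreted galectin-binding glycoprotein. Ly6c and its relatives encode surface antigens of leukocytes, and Klrk1 encodes the NKG2D receptor of natural killer cells. All 10 were lowest in SM replicate 2 and highest in SM+MSTF replicate 3, with ranges of 2.57 to 5.50 on the log2 scale. The widest range was that of Ly6cl1, which read only 2.85 in SM replicate 2. For comparison, Ifna4, which was well above background on no array, read 2.12 to 3.78. The promoter table held 7 of them, of which 5 had an ISRE core (Oas1i, Oasl2, Klrk1, Lgals3bp and Ifi44) and none the GAS letters.

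The rest of the interferon system was read from 7 lists that held 117 other genes, of which 77 had a probe and 65 were tested. None of the 65 was called by limma in any comparison. With an unadjusted p under 0.05 and the fold minimum, Rtp4 passed against control in SM, Rtp4 and Myd88 passed in SM+MSTF versus SM, and 0 passed for SM+MSTF against control. Over all tested probes these shares were 5.61%, 5.36% and 3.01%, in the same order. The t-test of the methods with the fold minimum called 1 of the 65 in SM+MSTF versus SM and 0 in each of the other comparisons unadjusted, and 0 in each after adjustment. In SM versus control 51 of 65 had a lower mean in SM, with a median of -0.24 beside 0.03 over all tested probes. In SM+MSTF versus SM 56 had a higher mean, with a median of 0.39 beside -0.02. Of the 65 genes, 30 had r of at least 0.9 with the members, so these counts are not separate observations.

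The ligands could not be read at this sensitivity. Of the interferon genes Ifna4, Ifna5, Ifnb1, Ifng and Ifnk, 4 were well above background on no array and Ifnb1 on 1 array, control replicate 2, and none was tested. Of 9 listed receptors and kinases 7 had a probe, and Ifnlr1 was well above background on no array. Transcripts of the others with a probe were detected and narrow. The 6 tested genes of that list ranged over 0.38 to 0.87 on the log2 scale, with a median r to the members of 0.29, and Jak1 had the largest differences, 0.19 (SE 0.11) in SM versus control and -0.35 (SE 0.11) in SM+MSTF versus SM. Jak2 alone among them followed the members, with r = 0.822.

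Among the signal-carrying factors, Irf9, part of the complex that binds the ISRE, and Irf5 followed the members with r of 0.949 and 0.931. Irf9 was 8.44, 8.78 and 8.90 in control, 8.47, 7.64, 8.84 and 9.11 in SM and 8.51, 8.87 and 9.49 in SM+MSTF. SM replicate 2 was again its lowest array and SM+MSTF replicate 3 its highest. Irf5 had the largest difference of this list in SM+MSTF versus SM, 0.46 (SE 0.23, limma adjusted p = 0.352). Irf3, which is activated by phosphorylation and not by induction, ranged over 0.22 with r = 0.128. In the list of nucleic acid sensors, adaptors and related genes, Trex1, Dhx58, Tlr4 and Ifih1 followed the members with r of 0.907 to 0.955. Tlr9 had the largest difference of that list in SM versus control, 0.48 (SE 0.20, limma adjusted p = 0.258). It was not well above background in control replicate 2. Of the negative regulators, Trim21 had the largest differences in both comparisons with SM, -0.30 (SE 0.28) against control and 0.39 (SE 0.28) for SM+MSTF.

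Other induced genes shared the pattern of the members to varying degrees. Of 30 other interferon-induced genes, 29 had a lower mean in SM than in control and all 30 a higher mean in SM+MSTF than in SM. The medians were -0.46 and 0.59, beside 0.03 and -0.02 over all tested probes. Of the 30, 19 had r of at least 0.9 with the members, so these counts largely repeat the same rats and are not separate observations. Ifit1, the partner of Ifit3, was not well above background in SM replicate 2 and ranged over 4.87 on the log2 scale on the other 9 arrays, up to 9.83 in SM+MSTF replicate 3. Its difference in SM+MSTF versus SM was 2.29 (SE 1.10, limma adjusted p = 0.341). Rtp4, which encodes a receptor-transporting protein, had the largest difference of this list in SM versus control, -1.42 (SE 0.48, limma adjusted p = 0.174). It read 13.54, 13.57 and 13.53 in control, 12.37, 10.77, 12.42 and 12.95 in SM and 12.71, 13.11 and 14.14 in SM+MSTF. Its SM arrays all lay below its control arrays, as did those of 7.96% of all tested probes. Of the 6 tested interferon gamma-induced genes, all were lower in mean in SM, and Cxcl10, a chemokine that draws T cells, had the largest difference, -1.82 (SE 0.92, limma adjusted p = 0.373). Cxcl10 read 10.42, 11.46 and 10.94 in control, 8.55, 6.82, 9.91 and 11.20 in SM and 9.96, 10.14 and 12.12 in SM+MSTF.

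**Figure D4:**
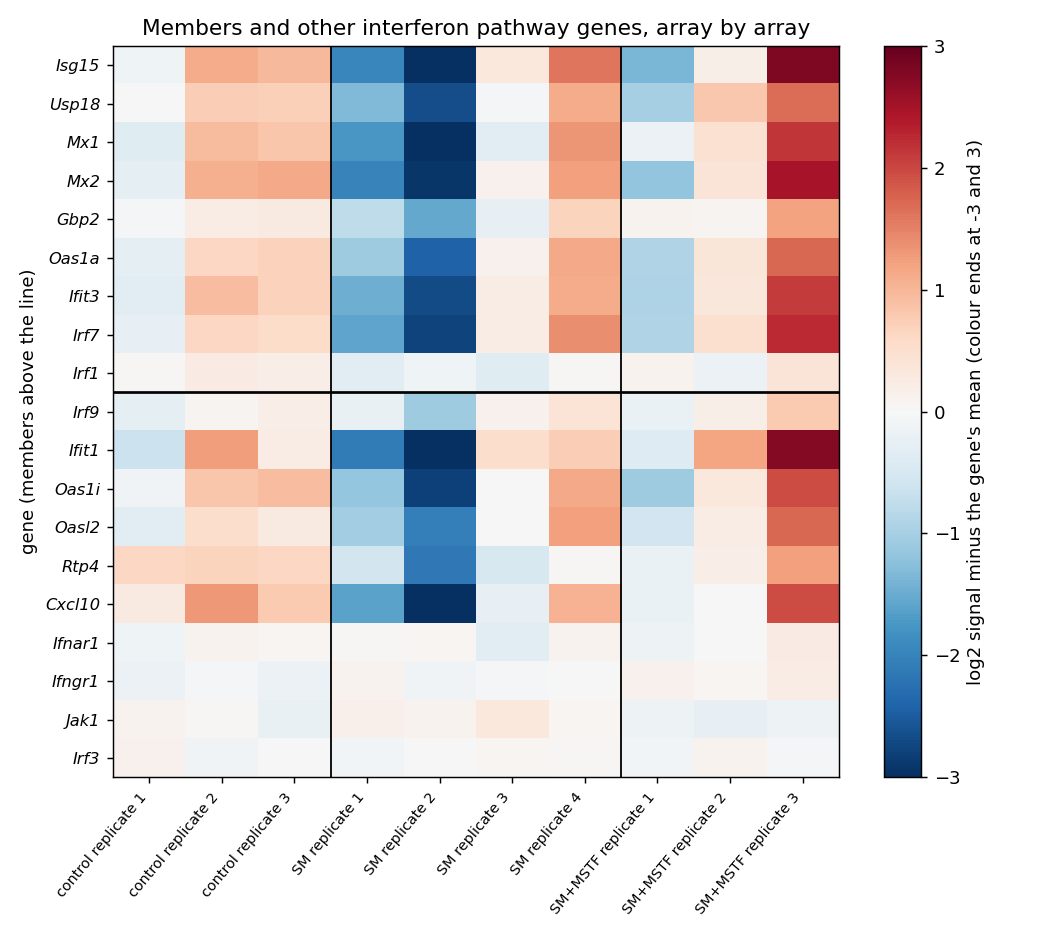
Log2 signal minus the gene's mean over the 10 arrays (colour, ends at -3 and 3) for the 9 members (above the line) and 10 other interferon pathway genes (below it), with arrays in columns by group. In most induced genes SM replicates 1 and 2 are blue, and SM replicate 4 and SM+MSTF replicate 3 are red. Cells of Irf1 and some of Irf9 and Rtp4 are faint, and Ifnar1, Ifngr1, Jak1 and Irf3 stay pale. The 10 genes were picked after their values were seen, to show both patterns.

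**Figure D5:**
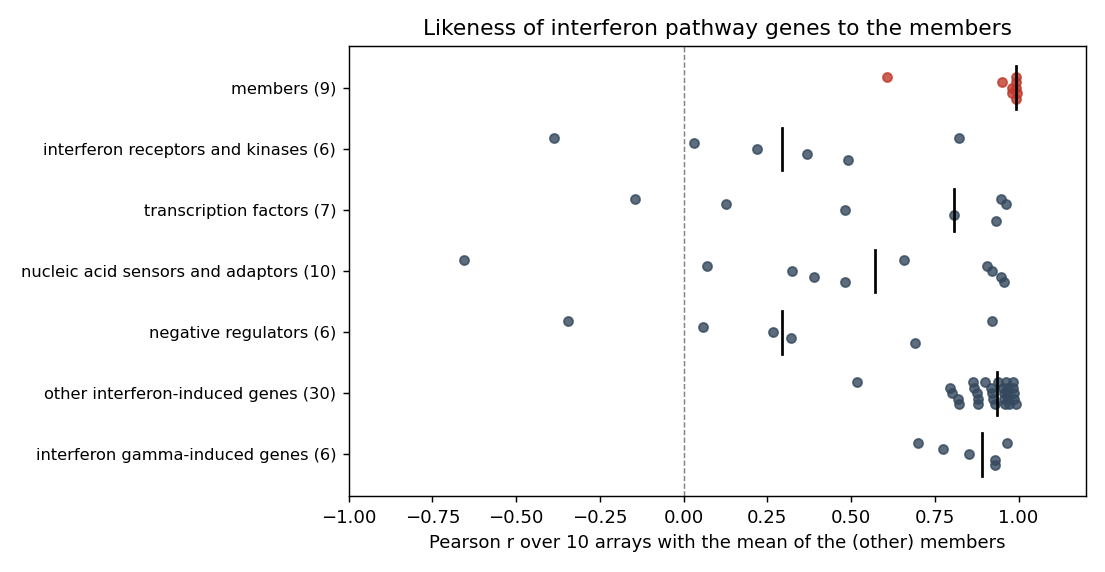
Pearson's r over the 10 arrays (x axis) between each tested gene and the mean of the members (for a member, the mean of the other members), by gene list with the number of genes. Points are genes and the black line is the median, 0.94 for the other interferon-induced genes and 0.29 for the receptors and kinases.

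Markers of natural killer cells moved with the members on the same arrays, and those of other immune cells did so in part or not. Of 7 natural killer cell markers 5 were tested, Klrb1 had no named probe, and Ncr1, a defining receptor, was well above background on no array. The log2 of their summed signal was 10.03 to 10.32 in control, 9.19 to 10.61 in SM and 9.64 to 10.86 in SM+MSTF, and its r with the mean of the members was 0.987. Gzmb, Prf1, Nkg7 and Klrk1 each had r of 0.953 to 0.985 and Klrd1 had 0.744. Gzmb, a cytotoxic granule protease, ranged over 3.24 on the log2 scale and Klrk1, also one of the 10 genes most alike, over 2.59. Klrd1 was called by limma, lower in SM than in control by 1.22 on the log2 scale (SE 0.23, adjusted p = 0.0277). It was also called higher in SM+MSTF than in SM, by 1.15 (SE 0.23, adjusted p = 0.0455). Of all tested probes, 2.41% and 1.26% were called in these comparisons. Klrd1 was dim, well above background on only 8 of the 10 arrays, and read 4.46, 3.64, 4.30 and 4.53 in SM. Its differences are therefore limited by low signal. The part of natural killer cells in the pattern of the members was not tested.

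All 9 markers of Kupffer cells and macrophages were tested, and none was called by limma. All 9 had a lower mean in SM than in control, and a higher mean in SM+MSTF than in either other group. In SM+MSTF versus SM 4 of 9 had an unadjusted limma p under 0.05, where 15.9% of all tested probes had. These markers are not separate observations. Their summed log2 signal was 16.72 to 17.08 in control, 16.11 to 17.02 in SM and 16.80 to 17.14 in SM+MSTF, with r = 0.909 for the sum and 0.769 for the mean of the centred genes. Single genes of that list ran from r = 0.086 (Adgre1) to 0.913 (C1qb). The 5 tested of 6 T cell markers summed to 9.46 to 9.61, 8.74 to 9.75 and 9.09 to 9.81, with r = 0.717 for the sum and single genes from -0.162 (Lck) to 0.836 (Cd8a). The 3 endothelial markers with a probe ranged over 0.40 and the hepatocyte markers over 0.27, with r of 0.107 and -0.176 for the sums and 0.406 and -0.531 for the means of the centred genes. Single endothelial genes ran from r = -0.142 (Pecam1) to 0.711 (Lyve1), and hepatocyte genes from -0.592 (Cps1) to 0.338 (Fga). Of the neutrophil list 3 of 6 genes were tested, with sums of 9.12 to 9.84 in control, 8.93 to 10.94 in SM and 9.46 to 10.73 in SM+MSTF (r = 0.356). Singly they had r of 0.057 (S100a8), 0.107 (S100a9) and 0.784 (Fcnb). For B cells only Cd79b of 4 genes was tested (r = 0.363) and for plasmacytoid dendritic cells, the main producers of type I interferon, only Tcf4 of 6 (r = 0.383), so these cells could not be followed. The part of any of these cell types in the results was not tested.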

How the data were processed

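Liver RNA of 10 rats was hybridized to 10 arrays. The authors read each array with Agilent Feature Extraction 10.7 (per the submitters' processing notes) and deposited a background-subtracted intensity for every spot. The authors also deposited log2 values per probe after quantile normalization in GeneSpring, which served as an alternative.

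Here control spots and non-uniform spots (at most 4 on an array) were dropped. Intensities were quantile normalized between the 10 arrays and log2 transformed, and replicate spots of a probe were averaged (R 4.3.3, limma 3.58.1). Of 41012 probes, 22991 were tested, namely those well above background throughout 1 group or more. Probe accessions were named through a RefSeq gene table of assembly GRCr8 (17512 probes named), so the array design gives no coordinates. The 3 comparisons came from 1 limma fit (lmFit, eBayes) over all arrays. A probe was called at an adjusted p under 0.05 over all tested probes and a 1.5-fold change. A gene with several probes was read by the one of highest mean signal. The fit was tested on simulated data with independent noise between probes and the same SD in every group. Most members move together and their spread differs between groups, so that test does not speak to them. The number of arrays limits the precision.

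Members and lists were chosen with earlier results of these data known. Named were all members, pathway genes called or with the largest difference of their list (1 such gene is not reported here), and the 10 genes most alike. Jak2, Irf9, Irf3, Trex1, Dhx58, Ifih1, Myd88, the single marker genes and the genes plotted as pale were picked after their values were seen. Alternatives were other scalings, background corrections, filters and tests, blocks for replicate number and slide, and each array left out.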

Additional observations from a re-analysis of the deposited data

How the results depend on the processing

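No member gene and no other pathway gene was called under any alternative that adjusts for all probes, whichever array was left out. All 9 members kept a lower mean in SM than in control and a higher mean in SM+MSTF than in SM in every alternative run (215 values each, with Mx1 untested where detection on all 10 arrays was required). Many of these values could not differ from the main result. Alternatives that change only the filter, the threshold or the test keep the same group means, as does leaving out an array of the group not compared. Most members also move together, so the values are not separate checks. With each array left out the members in the top 1% of within-group SD numbered 6 to 7, and without a detection filter 2, since dim probes then enter the ranking. That count was chosen after seeing the data.

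Differences of SM+MSTF versus control, all close to 0, changed sign in 27 of 224 values. Usp18 gave -0.0046 with 75th percentile scaling and -0.029 with normexp. With the slide as a random block Isg15 gave 0.20 and Mx2 0.20. With the slide as a fixed block, where SM+MSTF replicate 3 alone stands against the controls, Isg15 gave 2.15, Mx2 1.83 and Irf1 0.23. Leaving out 1 array gave ranges of -1.25 to 0.84 for Isg15, -0.58 to 0.76 for Usp18, -0.33 to 0.84 for Mx1, -1.02 to 0.80 for Mx2, -0.065 to 0.50 for Gbp2, -0.62 to 0.70 for Oas1a, -0.72 to 0.79 for Ifit3, -0.52 to 1.051 for Irf7 and -0.20 to 0.083 for Irf1. The lowest value came in each case without SM+MSTF replicate 3.

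Counts over all tested probes moved more. In SM versus control (553 called) they were 226 with normexp, 342 without a filter, 336 with detection on all 10 arrays, 85 with the slide as a random block, 1290 with unadjusted p, 1131 by the methods' t-test and 320 after its adjustment. In SM+MSTF versus SM (290 called) they were 60 with normexp, 140 with detection on all arrays, 147 with the 2 groups alone, 102 with the slide as a random block, 1232 with unadjusted p, 863 by the t-test and 13 after its adjustment. In SM+MSTF versus control (0 called) they were 291 with the slide as a fixed block, 692 with unadjusted p and 285 by the methods' t-test. Leaving out 1 array gave, in the same order, 65 (without control replicate 2) to 717, 98 (without SM replicate 1) to 301 and 0 to 247 (without SM+MSTF replicate 3). Unadjusted, limma called 1 other pathway gene for SM against control and 2 for SM+MSTF against SM, and the t-test 1 for the latter. The causes were not tested.

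Replicate numbers share only a number: deviations of same-numbered arrays correlated at -0.10 to 0.17, others at -0.23 to 0.18. With the replicate number as a block, which leaves SM replicate 4 without a partner and so out of the comparison, the calls were 53 for SM against control and 64 for SM+MSTF against SM, and the members stayed at 0. Signal over background limits the interferon genes themselves and Mx1 in SM replicate 2.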
